A study of Mus musculus with 24 samples.

Results

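The 5 transcription factors Foxa2, Sox17, Hhex, Gata6 and Gata4, which mark and build the definitive endoderm, were followed across every cell line and tissue of a mouse array study of epiblast stem cells. All probes naming these 5 genes through a RefSeq accession were used, which gave 7 probes for 5 genes among the 20616 genes measured. The study profiled RNA on 24 single-colour arrays in 12 groups of 2. An EpiSC (epiblast stem cell) line is pluripotent and comes from the epiblast of the implanted embryo, whereas an mESC (mouse embryonic stem cell) line comes from the embryo before it implants. Wt1 (here the name of a line, not of a gene) and 129C1 were EpiSC lines made by the original protocol. 129Ba1, 129Ba2 and BNa17 were EpiSC lines established with a Wnt signalling inhibitor, and are called the inhibitor lines here. 129C1 was also profiled after treatment with IWP2, which blocks the release of Wnt ligands from the cells that make them. J1 and R1 were mESC lines in conventional medium, and J1 was also profiled in 2i, a pair of inhibitors of the Erk kinase pathway and of Gsk3. The embryonic groups were hand-dissected epiblast of embryonic day 5.5 (E5.5) and 6.5 (E6.5) and ectoderm of day 7.5 (E7.5). All cultured lines grew on feeder cells and were separated from them before RNA was taken. Genotypes, passage numbers and treatment times are not given in the sources used here. Nor is it stated whether the 2 arrays of a group stem from different cultures or embryos, and p-values then measure only the spread between arrays, which may be technical.

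The definitive endoderm arises from epiblast cells that pass through the anterior primitive streak, under Nodal and Wnt signals, and it later lines the gut and its organs. Foxa2 is a forkhead factor that opens chromatin in the anterior streak, node and endoderm. Sox17 is an HMG-box factor needed to form definitive endoderm. Hhex is a homeobox factor of the anterior endoderm. Gata6 and Gata4 are zinc-finger factors of endoderm, and also of heart and of the extraembryonic endoderm that surrounds the epiblast. Foxa2, Hhex and Sox17 are expressed in parts of the extraembryonic (visceral) endoderm too, so none of the 5 genes is a marker of definitive endoderm alone.

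Levels are given on a log2 scale on which 0 is the 75th percentile of the signals of the same array (P75 in the plots), so 1 unit is a doubling. A value is called well above background where the scanner software did so for the spot, and levels not well above background have no reliable order. Levels are compared between groups for 1 probe and never between probes. The share of probes well above background ran from 36.7% to 53.2% per array, lowest on BNa17 replicate 1, and replicate arrays correlated at r of 0.966 to 0.989. The 3 pluripotency genes Pou5f1, Nanog and Sox2 were well above background in all 12 groups, and 5 of 5 naive markers (such as Zfp42, Klf4 and Esrrb) were so in J1, R1, J1 in 2i and the E5.5 and E6.5 epiblast. All 8 feeder fibroblast markers were well above background in every cultured group, as were 6 at E5.5, 5 at E6.5 and 4 at E7.5, and whether this RNA came from feeders was not tested. The arrays lay on 6 slides, and each group lay on 1 slide. Wt1 shared a slide with IWP2-treated 129C1, and untreated 129C1 shared one with the 3 inhibitor lines.

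Foxa2 (NM_010446) was read by 2 probes, and probe A_55_P2134236, which stands for the gene in the tests, was well above background on 17 of 24 arrays. Its level was 3.78 and 4.65 on the Wt1 arrays, 4.37 and 3.98 in 129C1, and 3.97 and 4.10 in E6.5 epiblast. In 129C1 with IWP2 it was -4.34 and -5.99, in 129Ba1 -4.12 and -3.38, in 129Ba2 -3.83 and -5.54, and in BNa17 -4.19 and -4.09. Of these 8 arrays, 1 (129Ba1 replicate 2) was well above background. Foxa2 therefore stood high in the original lines and in E6.5 epiblast, whose arrays overlapped, and lay near or under the detection limit in all EpiSCs with a Wnt inhibitor. Between these extremes stood J1 (1.64 and 1.31), E7.5 ectoderm (0.43 and 1.22), E5.5 epiblast (-0.68 and 1.58), R1 (-0.68 and -0.75) and J1 in 2i (-2.37 and -2.45). In the order of group means, Wt1, 129C1 and E6.5 overlapped, E7.5 overlapped with E5.5 and E5.5 with R1, and J1 and J1 in 2i stood apart from the groups on either side. The other probe, A_55_P2067533, was well above background on 12 arrays and followed the first one over the 12 group means (r = 0.981). On A_55_P2067533, J1 in 2i (-4.78 and -5.65), R1 replicate 1 and E5.5 replicate 1 were not well above background.

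Sox17 (NM_011441) was well above background on 9 of 24 arrays with either of its 2 probes. On probe A_55_P2094706, which stands for the gene in the tests, Wt1 had 0.85 and 1.11 and 129C1 had 1.55 and 1.23. E6.5 epiblast had -2.12 and -1.25, J1 -2.63 and -2.31, and E5.5 epiblast -4.06 and -1.43, with the first of these E5.5 values not well above background. On all arrays of the remaining 7 groups Sox17 was not well above background, with values from -5.91 to -2.54. The highest of these, -2.54, was BNa17 replicate 1, the dimmest array. Sox17 was thus highest in the 2 original EpiSC lines, without overlap with any other group, and both lines stood above E6.5 epiblast. The probe A_55_P2157023 also had 129C1 (2.30 and 2.02), Wt1 (1.86 and 2.03) and E6.5 epiblast at the top, with 129C1 and Wt1 overlapping, and its group means correlated with those of the first probe at r = 0.992 over the 12 groups.

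Hhex (NM_008245, probe A_52_P528600) was well above background on 18 of 24 arrays, the most of the 5 genes. It was 2.64 and 2.35 in 129C1 and 1.29 and 1.65 in Wt1, and these 2 lines did not overlap with each other or with any other group. J1 (0.29 and 0.12), J1 in 2i (-0.05 and 0.33), E6.5 epiblast (-0.35 and 0.41), R1 (-0.01 and -0.32) and E5.5 epiblast (-2.06 and -0.00) overlapped from each group to the next. E7.5 ectoderm followed without overlap at -2.09 and -2.16. The EpiSCs with a Wnt inhibitor were lowest, from -5.17 to -3.31, and 2 of their 8 arrays were well above background. Hhex, like Foxa2 on probe A_55_P2134236, was well above background on each array of the 3 mESC groups and the 3 embryo groups. Sox17, Gata6 and Gata4 were not well above background in R1 or in J1 with 2i.

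Gata6 (NM_010258, probe A_51_P411917) was well above background on 12 of 24 arrays. Its levels were 1.70 and 2.01 in 129C1, 0.85 and 1.37 in Wt1, and 0.66 and 1.32 in E6.5 epiblast. J1 had -1.38 and -0.83, E7.5 ectoderm -1.34 and -1.62, and E5.5 epiblast -3.81 and -0.52, the first of which was not well above background. In R1, J1 in 2i and the EpiSCs with a Wnt inhibitor the levels ran from -5.46 to -3.00, and 1 array, 129Ba1 replicate 2, was well above background. Among the groups with signal, Wt1 and E6.5 overlapped, as did J1, E7.5 and E5.5 with their neighbours, while 129C1 stood above all others.

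Gata4 (NM_008092, probe A_55_P2028894) was well above background on 10 of 24 arrays. It was 0.77 and 0.57 in 129C1, 0.06 and 0.65 in Wt1, -0.36 and 0.46 in E6.5 epiblast, and -2.05 and 0.47 in E5.5 epiblast. These 4 groups overlapped along the order and were the ones in which both arrays were well above background. E7.5 ectoderm had -3.34 (not well above background) and -2.01, and J1 had -2.75 and -3.90 (the latter not well above background). In R1, in J1 with 2i and in all EpiSCs with a Wnt inhibitor Gata4 was not well above background on any array, with values from -5.88 to -3.14.

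**Figure D1:**
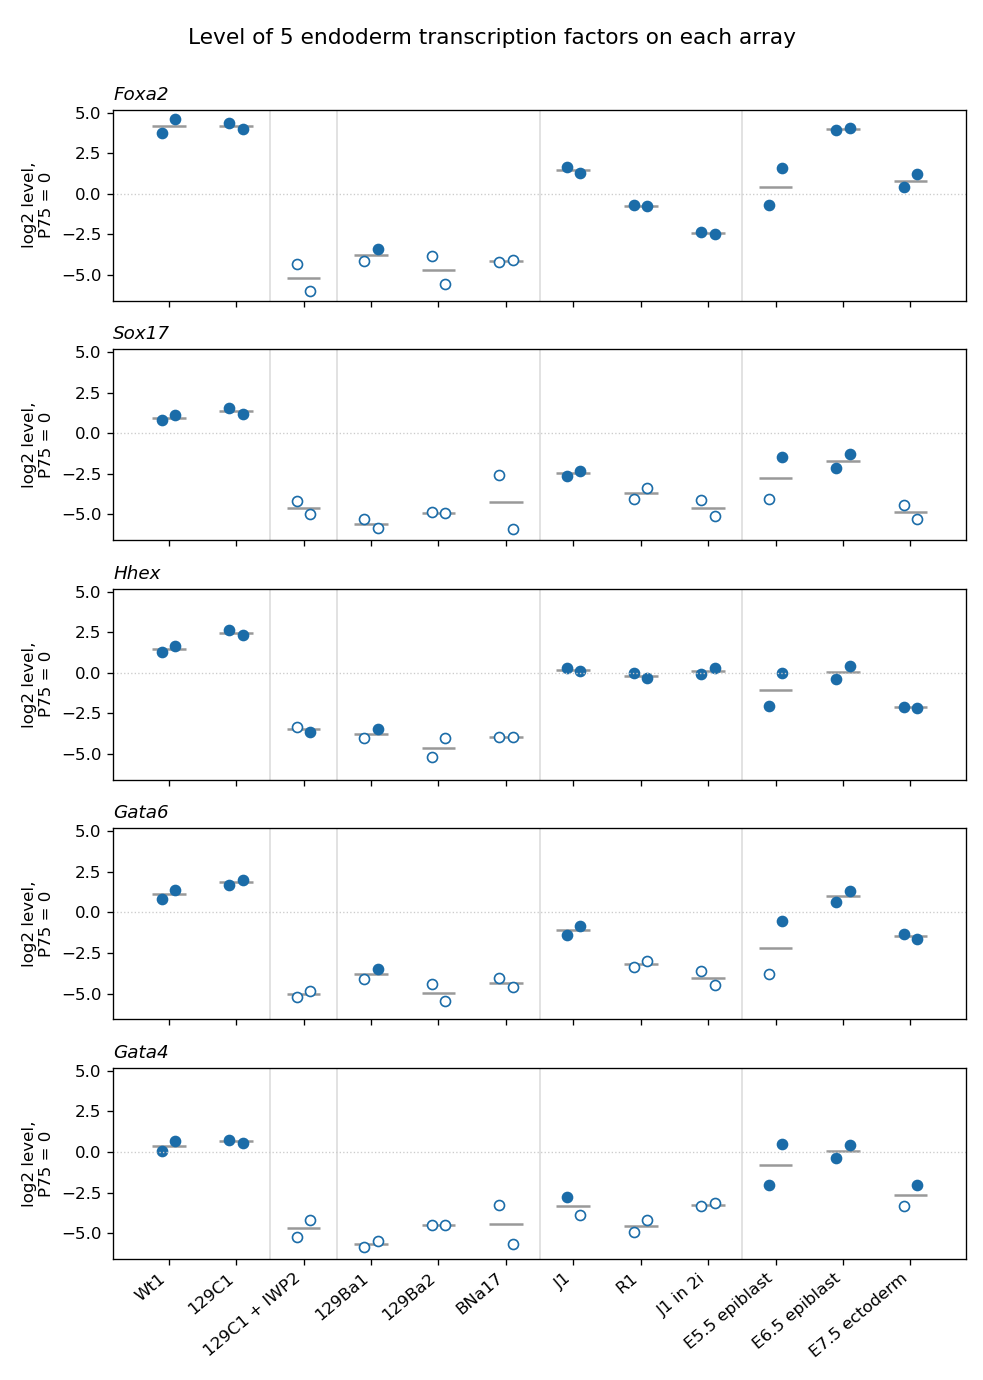
Log2 level (vertical axis, 0 is the 75th percentile of the array) of Foxa2, Sox17, Hhex, Gata6 and Gata4 on each of the 24 arrays, by group; filled points are well above background, open points are not, and grey bars are means of 2 arrays. Every gene is filled and high in Wt1 and 129C1 and mostly open in the 4 groups with a Wnt inhibitor, and Foxa2 and Hhex are also filled in J1, R1 and J1 in 2i. Foxa2 and Sox17 are shown by the probe that stands for the gene in the tests.

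Promoter sequence was at hand for 2 of the 5 genes, Foxa2 and Hhex, and it is shown to let a reader see what the windows hold. Windows of 250 bases before each RefSeq start (build GRCm38.p6) were searched on both strands for 7 motifs. Tcf/Lef factors, which carry the Wnt signal to DNA, were searched as CTTTGAT and, for the other common last letter of their site, as CTTTGAA. Foxh1, a partner of the Nodal effectors, was searched as AATNCACA and the Smad effectors themselves as GTCTG. The site of T-box factors such as Eomes was searched as GGTGTGA, and that of the Gata factors, which include Gata4 and Gata6, as AGATAA. The forkhead site, bound by Foxa2 and its relatives, was searched as TGTTTAC and the site of Sox factors, Sox17 among them, as ACAATGG. Overlapping matches were all counted. The Hhex window and 2 of the 3 Foxa2 windows held 0 matches. The most downstream Foxa2 window held 1 match, a Gata motif, from 183 to 178 bases before the start. Of all 32817 promoter windows of this length, 9.99% held the Gata motif, 42.2% the Smad motif and 7.48% a Tcf/Lef motif, while Foxh1 (3.18%), T-box (3.33%), forkhead (3.16%) and Sox (3.02%) were rarer. The Gata match is shown in capitals within 30 bases of the Foxa2 window (chr2:148045630-148045659, minus strand), beside the Hhex window (chr19:37434591-37434840, plus strand), which has no capitals.
Foxa2: ctgttagccttgAGATAAtattaactttgt
Hhex: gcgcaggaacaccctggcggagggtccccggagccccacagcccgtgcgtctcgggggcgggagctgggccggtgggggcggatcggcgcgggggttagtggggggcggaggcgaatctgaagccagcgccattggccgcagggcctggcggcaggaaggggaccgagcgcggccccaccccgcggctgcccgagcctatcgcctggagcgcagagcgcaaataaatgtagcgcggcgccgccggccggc

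The first comparison asked how EpiSC lines made with a Wnt inhibitor differed from lines made by the original protocol. All 5 factors were lower in 129Ba1, 129Ba2 and BNa17 than in Wt1 and 129C1, with no overlap between the arrays. The 3 inhibitor lines were compared with the 2 original lines as line means, and a gene was called at an adjusted p below 0.05 (limma, Benjamini-Hochberg over all genes tested) and at least 2-fold. Foxa2 fell by 8.39 ± 0.31 (log2 difference ± standard error, adjusted p = 0.00278), with 1 of 6 arrays of the inhibitor lines well above background. The drop of Sox17 was at least 28.0-fold (adjusted p = 0.00602) and that of Gata4 at least 17.5-fold (adjusted p = 0.00977), bounds that set the bright arrays against the lowest signal well above background, because neither gene was measured on any inhibitor line array. Hhex fell by 6.08 ± 0.41 (adjusted p = 0.00559) and Gata6 fell by 5.84 ± 0.41 (adjusted p = 0.00631), each with 1 of 6 arrays of the inhibitor lines well above background. The sizes depended on the processing. Across the alternative settings the smallest differences were -5.38 for Foxa2, -2.69 for Sox17, -3.29 for Hhex, -2.74 for Gata6 and -2.01 for Gata4. Of the 14043 genes tested, 1.04% were called lower and 0.534% higher, against 5 of 5 factors called lower. All 5 entered this test through the original lines, where they are bright, so their joint passage carries no weight of its own. Without BNa17, the adjusted p was 0.0513 for Hhex, 0.0553 for Gata6 and 0.0541 for Gata4, and Foxa2 and Sox17 stayed called.

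Because Wt1 lay on another slide, the inhibitor lines were also set against 129C1 alone, which shared their slide. This fit took arrays, not line means, as replicates (24 arrays in 12 groups). Its p-values measure the spread between arrays and cannot be set against those for line means above. All 5 factors were again called lower, against a background of 5.34% of genes lower and 5.85% higher. Foxa2 fell by 8.37 ± 0.55 (adjusted p = 8.85e-08), Hhex fell by 6.59 ± 0.41 (adjusted p = 4.06e-08) and Gata6 fell by 6.21 ± 0.59 (adjusted p = 3.07e-06). The drop was at least 32.3-fold for Sox17 (adjusted p = 1.87e-05) and at least 19.5-fold for Gata4 (adjusted p = 2.23e-05). Here 6 of 8 feeder fibroblast markers were called higher (median 1.11), 2 of 7 parietal endoderm markers higher (Plat and Thbd) and 3 of 13 visceral endoderm markers lower (Apoa1, Hnf4a and Rbp4), and their part in the result was not tested. The differences rest on 2 arrays of 1 original line, and 129C1 also serves as the control of the IWP2 comparison.

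The second comparison asked what IWP2 did within 1 line. In IWP2-treated 129C1 all 5 factors were lower than in untreated 129C1, and 4 of them were not well above background on either treated array. Foxa2 was at least 219-fold lower (adjusted p = 1.00e-06), Gata6 at least 43.7-fold (adjusted p = 2.46e-05), Sox17 at least 31.8-fold (adjusted p = 0.000650) and Gata4 at least 19.2-fold (adjusted p = 0.000651). Hhex, which stayed well above background on 1 treated array, fell by 5.98 ± 0.50 (adjusted p = 3.64e-06). Of 15090 genes tested, 2.49% were called lower and 1.39% higher. Because the treated and the untreated 129C1 arrays did not share a slide, IWP2 and slide cannot be told apart in this contrast. On the slide it shared with Wt1, IWP2-treated 129C1 was also lower for 5 of 5 factors, at least 225-fold for Foxa2 (adjusted p = 1.99e-07), while Hhex fell by 4.96 ± 0.50 (adjusted p = 4.05e-06), where 8.01% of genes were called lower and 5.88% higher. That contrast sets different lines against each other, so line and IWP2 cannot be told apart in it. There 4 of 8 feeder fibroblast markers were called lower and 0 higher, and their part in the result was not tested. In these mixed RNA samples, fewer cells expressing a factor and less RNA per cell cannot be told apart.

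Treated 129C1 and the lines derived with an inhibitor were then compared with each other. None of the 5 factors was called with limma, and 0 had an unadjusted p below 0.05, where 5.36% of genes were called lower and 3.96% higher. The differences ran from -0.98 for Foxa2 (95% interval -2.15 to 0.20) to 0.61 for Hhex (95% interval -0.26 to 1.48). Most values on both sides were not well above background, so the levels had no reliable order. Treated 129C1 and the inhibitor lines lay on different slides, so line, treatment and slide cannot be told apart. 

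The original lines were also compared with each other. Between 129C1 and Wt1, 0 of 5 factors were called with limma and 0 had an unadjusted p below 0.05, while 5.74% of genes were called lower and 4.82% higher in 129C1. Foxa2 differed by -0.04 (95% interval -1.48 to 1.40) and Gata4 by 0.31 (95% interval -1.38 to 2.01), and the arrays overlapped for both. Sox17 (0.41), Gata6 (0.74) and Hhex (1.02, 95% interval -0.04 to 2.08) were higher on both 129C1 arrays than on both Wt1 arrays, differences within the error of the test. Hhex was called when these 4 arrays were fitted alone (adjusted p = 0.0271). In the fit of all arrays, 6 of 8 feeder fibroblast markers were called lower in 129C1 and 0 higher, and their part was not tested. Wt1 and 129C1 lay on different slides, so line and slide cannot be told apart.

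**Figure D2:**
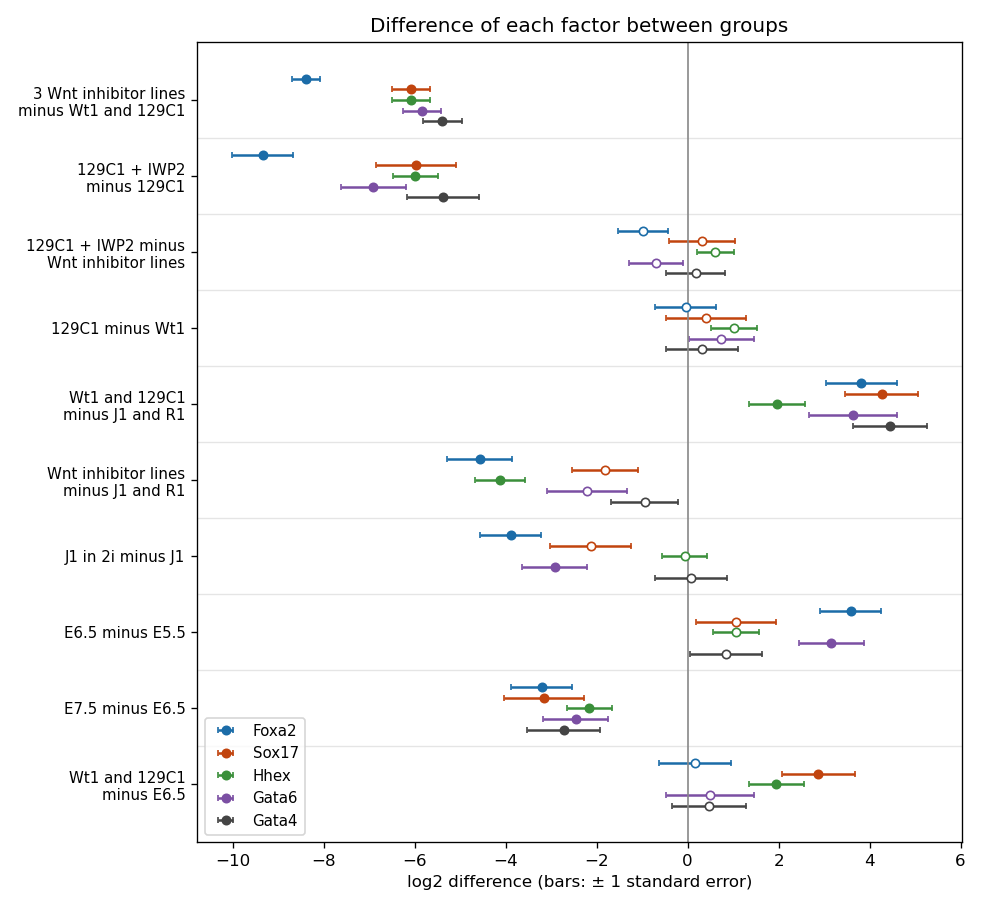
Log2 difference (horizontal axis, bars are ± 1 standard error of the limma fit) of the 5 factors in 10 comparisons; filled points were called. The fitted differences of the inhibitor lines from the original lines and of treated from untreated 129C1 lie between -9.34 and -5.37, many of them against levels not well above background, while those between IWP2-treated 129C1 and the inhibitor lines lie between -0.98 and 0.61.

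Other genes of the same territory were read from lists drawn up by known role, but with earlier results of these data known. The endoderm list held 22 regulators and markers of definitive endoderm and the anterior streak, of which 14 passed the filter on dim probes in the comparison of lines. Of these 14, 8 were called lower and 0 higher in the inhibitor lines (among them Cer1, Cxcr4, Eomes, Foxa1, Foxa3, Gsc and Lhx1), with a median of -2.42 against 0.07 over all genes. For Cer1, a secreted Nodal antagonist of anterior endoderm, the drop was at least 398-fold (adjusted p = 0.00455). Gsc, a homeobox factor of the anterior streak, fell by 6.96 ± 0.22 (adjusted p = 0.00211), and Eomes, a T-box factor upstream of endoderm, fell by 3.92 ± 0.32 (adjusted p = 0.00999). With IWP2 in 129C1, 11 of 16 tested genes of the list were called lower and 0 higher, and the drop of Cer1 was at least 718-fold (adjusted p = 6.19e-06). Eomes was well above background on all 6 arrays of the inhibitor lines. Of all genes tested, 1.04% were called lower in the inhibitor lines and 2.49% with IWP2. Some genes of the list, such as Cer1 and Foxa3, were well above background in the original lines but on no inhibitor line array. The filter admits such genes through the bright lines, so the counts carry no weight of their own.

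Relatives of the 5 factors did not move as one. Foxa1 fell by 5.03 ± 0.54 in the inhibitor lines (adjusted p = 0.0212), the drop was at least 2.60-fold for Foxa3 (adjusted p = 0.0498), and at least 12.3-fold for Gata1, a blood factor (adjusted p = 0.0139). Gata5, the closest relative of Gata4 and Gata6 in endoderm and heart, was 3.12 and 2.21 in Wt1, 2.50 and 2.36 in 129C1, 3.24 and 3.27 with IWP2, and between 2.20 and 2.90 on the 6 arrays of the inhibitor lines. Inhibitor and original lines overlapped and differed by -0.00 ± 0.20 (adjusted p = 0.997). With IWP2 both arrays were above those of untreated 129C1, by 0.82 ± 0.35, which was not called (adjusted p = 0.234). Gata5 was well above background on all 24 arrays. Sox7 and Sox18, the other group F Sox factors, were too dim to be tested. In total 3 of 6 tested relatives were called lower in the inhibitor lines and 4 of 6 with IWP2. Over all genes tested, these shares were 1.04% and 2.49%. Foxa3 and Gata1 were well above background in the original lines but on no inhibitor line array. The filter admits such genes through the bright lines, so these counts carry no weight of their own either. Of the 8 relatives, 5 also stand in the endoderm list.

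The signals upstream were read the same way, with the Nodal antagonist Cer1 counted in the endoderm list and not among the Nodal pathway genes. Of 16 Nodal pathway genes, 2 were called lower in the inhibitor lines (Cfc1 and Gdf3) and 3 with IWP2 (Cfc1, Gdf3 and Lefty2), with list medians of 0.10 and -0.17. Nodal, the ligand, differed by 0.69 ± 0.27 (adjusted p = 0.285) between inhibitor and original lines and by 0.67 ± 0.29 (adjusted p = 0.242) with IWP2. Tdgf1, a co-receptor of Nodal, differed by 0.64 ± 0.34 (adjusted p = 0.389) and the nuclear effector Foxh1 by 0.13 ± 0.19 (adjusted p = 0.738) between the lines. Cfc1 moved most in this list, by -8.75 between the lines (adjusted p = 0.00280) and by -9.48 with IWP2 (adjusted p = 8.90e-08). It was not well above background in 129Ba2, BNa17 or 129C1 with IWP2. Of 12 Wnt target genes, 11 passed the filter and 3 were called lower in the inhibitor lines (Dkk1, Lgr5 and Sp5), with a median of -1.52. With IWP2, 4 of 12 were called lower (Dkk1, Lgr5, Sp5 and T) and 1 higher (Sp8), with a median of -0.12. Over all genes tested, 1.04% were called lower in the inhibitor lines, and 2.49% lower and 1.39% higher with IWP2. Dkk1 and Sp5 were well above background in the original lines but on no inhibitor line array. The filter admits such genes through the bright lines, so the counts of these lists carry no weight of their own. T, the streak factor Brachyury, dropped at least 9.61-fold with IWP2 (adjusted p = 0.000179) and differed by -5.51 ± 0.91 (adjusted p = 0.0603) between the lines, while the feedback gene Axin2 was not well above background in 129C1 with or without IWP2.

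**Figure D3:**
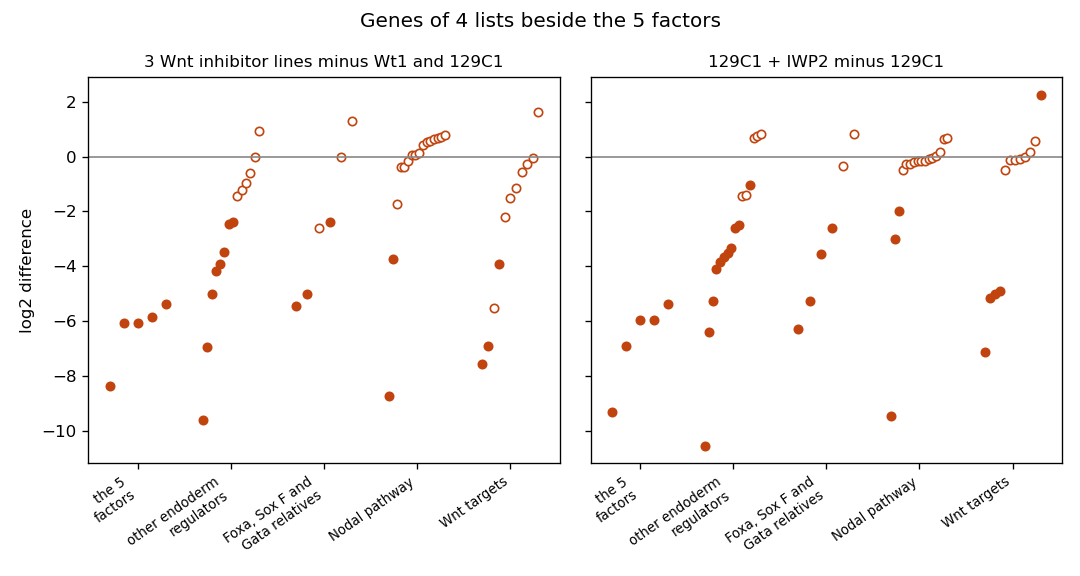
Log2 differences (vertical axis) of the 5 factors and of the tested genes of 4 lists, ordered by value within each list, for inhibitor lines minus original lines (left) and IWP2-treated minus untreated 129C1 (right); filled points were called. The 5 factors and most endoderm regulators lie below 0, while 3 of 16 Nodal pathway genes on the right are filled.

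Markers of other cell types that may carry these factors were read beside the result. Of 13 visceral endoderm markers, 9 passed the filter in the comparison of lines and 1, Rbp4, was called lower in the inhibitor lines. Of the 13 markers, 5 were well above background on both arrays in Wt1, 8 in 129C1 and 4 in 129C1 with IWP2. In the inhibitor lines these were 6 in 129Ba1, 5 in 129Ba2 and 3 in BNa17. Apoa1 and Hnf4a were among those of 129C1, whereas Afp and Ttr were not well above background on any array of a cultured line. The mean level of the 13 markers was -2.71 and -2.70 in Wt1 and -1.89 and -2.57 in 129C1, against -3.64 to -2.64 in the inhibitor lines. Among cardiac markers, Isl1 and Myl7 were called lower (2 of 4 tested), and among the 7 parietal endoderm and 8 feeder fibroblast markers 0 were called in this comparison. Over all genes tested in it, 1.04% were called lower and 0.534% higher. The part of such cells in the result was not tested.

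The third comparison set EpiSCs beside mESCs. In Wt1 and 129C1 all 5 factors were higher than in J1 and R1, and no arrays overlapped. Gata4 was higher by 4.45 ± 0.81 (adjusted p = 0.00182), Sox17 by 4.27 ± 0.80 (adjusted p = 0.00207), Foxa2 by 3.82 ± 0.78 (adjusted p = 0.00337), Gata6 by 3.62 ± 0.97 (adjusted p = 0.0125) and Hhex by 1.96 ± 0.61 (adjusted p = 0.0248). For Sox17 and Gata6 2 of 4 mESC arrays were well above background, and for Gata4 1 of 4, with no R1 array among them, so these 3 sizes rest partly on levels without a reliable order. Such calls were common here, with 15.3% of 14970 genes higher and 15.5% lower. The inhibitor lines lay below the mESC lines for Foxa2, which fell by 4.57 ± 0.72 (adjusted p = 0.000789), and for Hhex, which fell by 4.12 ± 0.56 (adjusted p = 0.000334), so 2 of 5 factors were called lower against 12.7% of all genes lower and 14.3% higher. Sox17 (-1.81, adjusted p = 0.0685), Gata6 (-2.21, adjusted p = 0.0663) and Gata4 (-0.94, adjusted p = 0.327) were not called. With arrays in place of line means, 4 factors were called lower, and without R1 Gata6 was called too (adjusted p = 0.0412). For the original lines, Hhex and Gata6 lost their calls without 129C1 (adjusted p = 0.132 and 0.0566) or without R1 (0.109 and 0.0968), and Hhex also without J1 (0.0642). The EpiSC and mESC lines lay on different slides scanned on different days, so line type, slide and day cannot be told apart.

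Within the mESCs, Foxa2 and Gata6 were lower in 2i, and Hhex was not called. Foxa2 fell by 3.89 ± 0.67 between J1 and J1 in 2i (adjusted p = 0.00101) and stayed well above background on both sides on probe A_55_P2134236. On its other probe neither array in 2i was well above background (-4.78 and -5.65). The drop of Gata6 was at least 6.48-fold (adjusted p = 0.00885). Hhex differed by -0.07 ± 0.50 (95% interval -1.13 to 1.00) with overlapping arrays. Sox17 was not well above background in 2i and lay at least 2.99-fold under J1, with an adjusted p of 0.0868 (0.0103 on its other probe and 0.00753 with these 4 arrays fitted alone), and Gata4 was not well above background in 2i and on 1 of 2 J1 arrays. Of all genes 7% were called lower and 6.04% higher, against 2 of 5 factors lower. In the endoderm list, 7 of 16 tested genes were called lower, among them Cer1, Eomes, Gsc and Lhx1, and 0 higher. J1 and J1 in 2i lay on different slides scanned on different days, and medium, slide and day cannot be told apart. Gata6 lost its call without J1 replicate 2 (adjusted p = 0.0644) or J1 in 2i replicate 2 (0.0776).

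Between the 2 mESC lines, limma called 0 of 5 factors. Foxa2 and Hhex were lower on both R1 arrays than on both J1 arrays, and Sox17, Gata6 and Gata4 were not well above background in R1. Foxa2 differed by -2.19 ± 0.67 (adjusted p = 0.232) and Gata6 lay at least 3.67-fold under J1 (adjusted p = 0.296), the 2 genes with an unadjusted p below 0.05. Few genes were called between these lines at all, 0.278% lower and 0.252% higher. J1 and R1 lay on different slides, so line and slide cannot be told apart. Foxa2 and Gata6 were called when only these 4 arrays were fitted (adjusted p = 0.00205 and 0.00695). Cer1, Gsc and Lhx1 of the endoderm list were called lower in R1 in the fit of all arrays.

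The embryo groups traced the factors through gastrulation stages. From E5.5 to E6.5, the days over which the primitive streak forms, Foxa2 rose by 3.58 ± 0.67 (adjusted p = 0.00418) and Gata6 by 3.15 ± 0.72 (adjusted p = 0.0126). Sox17 (1.06 ± 0.88, adjusted p = 0.541), Hhex (1.07 ± 0.50, adjusted p = 0.222) and Gata4 (0.84 ± 0.79, adjusted p = 0.598) were not called, and their arrays overlapped. Thus 2 of 5 factors were called higher against 2.7% of all genes higher and 2.16% lower. Of the endoderm list, Eomes, Frzb, Gsc, Mixl1 and Trh were called higher (5 of 16 tested) and 0 lower, and 8 of 12 Wnt targets were called higher, T by 6.38 ± 0.65 (adjusted p = 3.59e-05). The 2 E5.5 arrays differed from each other: replicate 2 was the higher one for each of the 5 factors, by as much as the -3.81 and -0.52 of Gata6. The mean level of 13 visceral endoderm markers was -0.26 on E5.5 replicate 1 and 3.0 on replicate 2, with Afp at -1.92 and 2.66 and Ttr at 0.12 and 3.44, and their part in the result was not tested. Without E5.5 replicate 1, Gata6 was not called (1.51, adjusted p = 0.0767), nor without E6.5 replicate 1 (adjusted p = 0.0511) or 2 (0.110), whereas Hhex was called without E5.5 replicate 2 (2.10, adjusted p = 0.00809). With the 4 arrays fitted alone, neither Foxa2 (adjusted p = 0.0745) nor Gata6 (0.175) was called.

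From E6.5 epiblast to E7.5 ectoderm all 5 factors were lower, with no overlap between the arrays. Foxa2 fell by 3.20 ± 0.67 (adjusted p = 0.00306), Hhex fell by 2.16 ± 0.50 (adjusted p = 0.00548), Gata6 fell by 2.46 ± 0.72 (adjusted p = 0.0198) and Gata4 fell by 2.73 ± 0.79 (adjusted p = 0.0198). For Sox17, not well above background at E7.5, the drop was at least 4.22-fold (adjusted p = 0.0159). Of all genes 8.56% were called lower and 6.3% higher, against 5 of 5 factors lower. In the endoderm list 10 of 16 were called lower and 1 higher (Cdx2). Nodal fell by 4.62 ± 0.29 (adjusted p = 1.06e-07) and 6 of 16 Nodal pathway genes were called lower and 1 (Smad3) higher, whereas 0 of 12 Wnt targets were lower and 3 (Cdx1, Nkd1 and Sp8) were higher. Of 13 visceral endoderm markers, 10 were called lower, with a mean level of 0.66 and 1.28 on the E6.5 arrays and of -3.33 and -3.16 on the E7.5 arrays, and their part in the result was not tested. The tissue taken also differed, epiblast against ectoderm, and these 2 stages lay on different slides scanned on different days. Stage, tissue, slide and day therefore cannot be told apart. Without E6.5 replicate 2 only Foxa2 was called, and the adjusted p was 0.117 for Sox17, 0.0679 for Hhex, 0.133 for Gata6 and 0.138 for Gata4. Without E7.5 replicate 1 Gata6 (0.0682) and Gata4 (0.167) were not called, and without E7.5 replicate 2 Sox17 (0.0973) and Gata6 (0.0870) were not.

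**Figure D4:**
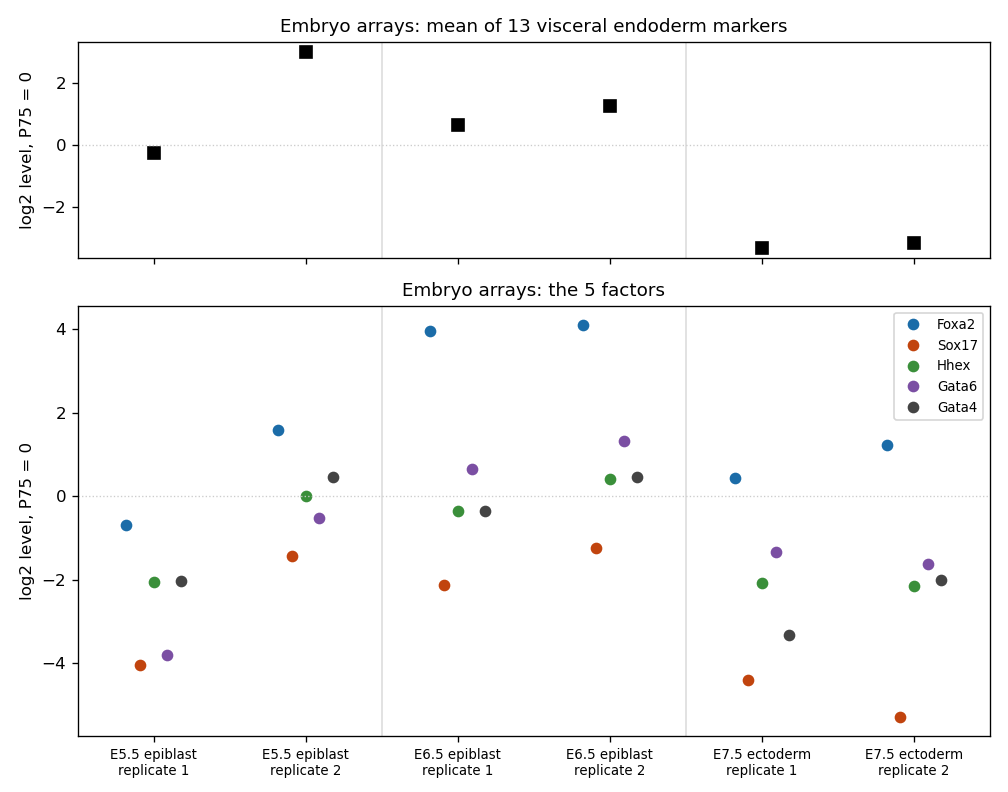
Log2 level (vertical axes, 0 is the 75th percentile of the array) of the mean of 13 visceral endoderm markers (top) and of the 5 factors (bottom) on the 6 embryo arrays. The marker mean is 3.0 on E5.5 replicate 2 and -0.26 on replicate 1, where all 5 factors are lower, and it is -3.33 and -3.16 at E7.5.

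Finally, EpiSCs were compared with the E6.5 epiblast, the embryonic group in which the 5 factors had their highest means. In the original lines Foxa2 (0.16, 95% interval -1.60 to 1.93), Gata6 (0.49, 95% interval -1.68 to 2.67) and Gata4 (0.46, 95% interval -1.36 to 2.28) overlapped with E6.5 and were not called. Sox17 was higher in the lines by 2.87 ± 0.80 (adjusted p = 0.0176) and Hhex by 1.95 ± 0.61 (adjusted p = 0.0286), without overlap. Calls of this kind covered 14.3% of all genes higher and 12.2% lower, against 2 of 5 factors higher. Neither gene was called without 129C1 (adjusted p = 0.0652 for Sox17 and 0.142 for Hhex) or without E6.5 replicate 1 (0.105 and 0.156), and Hhex was not called without E6.5 replicate 2 (0.0518). In the inhibitor lines all 5 factors were lower than at E6.5, against 10.1% of genes lower and 13.6% higher. Foxa2 fell by 8.22 ± 0.72 (adjusted p = 5.99e-05), Gata6 fell by 5.34 ± 0.88 (adjusted p = 0.00155) and Hhex fell by 4.13 ± 0.56 (adjusted p = 0.000560), while the drop was at least 12.8-fold for Gata4 (adjusted p = 0.000969) and at least 3.83-fold for Sox17 (adjusted p = 0.00731). Sox17 lost its call without E6.5 replicate 2 (adjusted p = 0.0661), and also with levels raised to the lowest signal well above background (-1.94, adjusted p = 0.0527). Of 13 visceral endoderm markers, 8 were called lower in the original lines (median -3.01) and 10 in the inhibitor lines (median -4.16), and 8 of 8 feeder fibroblast markers were called higher in both (medians 5.69 and 6.01). Their part in these differences was not tested. The E6.5 arrays and the EpiSC lines lay on different slides scanned on different days, so culture, slide and day cannot be told apart.

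The 5 patterns over the 12 group means were close to each other, with r from 0.769 (Hhex and Gata4) to 0.978 (Foxa2 and Gata6). These correlations describe 12 points that share slides and hold many levels near the detection limit, with no array well above background in 7 groups for Sox17 and 6 for Gata4. Among 6576 candidate genes, those most like Foxa2 were Cfc1 (r = 0.969), Gsc (0.959) and Dkk1 (0.951), and those most like Gata6 were Gsc (0.977), Dapk2 (0.947) and Dkk1 (0.940). Sox17 was nearest to Foxq1 (0.977), Cer1 (0.960) and Lhx1 (0.943), Hhex to Gata1 (0.941), Ccdc65 (0.933) and Batf (0.932), and Gata4 to Foxa1 (0.965), Lrrc43 (0.953) and Ambp (0.942). With all levels raised to the lowest signal well above background, Gsc became the gene nearest to Foxa2 (0.975), and Foxq1, Gata1, Gsc and Foxa1 stayed nearest to Sox17, Hhex, Gata6 and Gata4.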

How the data were processed

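RNA of 24 samples was labelled with Cy3 and hybridised to single-colour Agilent arrays. Agilent Feature Extraction 10.5.1.1 produced the spot values, per the submitters' processing notes. The authors deposited its output for every array, in which the processed signal is a linear intensity per the file headers, and their own log2 values, which tracked the scanner files array by array and served as an alternative. Their column medians ran from -0.351 to 0.781, and how they were centred is not given in the sources used here. Here log2 of the processed signal was scaled by subtracting each array's 75th percentile. Control spots and outlier flags were left out, and 0 values were saturated. Of 55681 probes, 27235 had a RefSeq accession, and each gene was represented by its probe with the highest mean level.

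Genes that were well above background in both replicates of 1 or more groups were tested with limma 3.58.1 (R 4.3.3, data.table at version 1.17.8), two-sided, with Benjamini-Hochberg adjustment over all genes tested. Inhibitor lines against original lines were fitted on 5 EpiSC line means. EpiSC lines against mESC lines or E6.5 epiblast were fitted on 7 line means with 6 embryo arrays. All other comparisons were fitted on 24 arrays in 12 groups, with arrays as replicates. A call needed an adjusted p below 0.05 and at least 2-fold. The number of arrays limits the precision, and the fits were tested on simulated data. An "at least" fold sets the bright side's mean against the higher of the dim gene's own level and the lowest level well above background on each dim array. Such a bound holds for the levels as scaled here, and other processing can give a smaller difference. Named genes were the 5 factors, genes chosen by role from the lists, and the 3 genes most correlated with each factor; other genes named for small counts of calls were chosen after their values were seen. The members and lists were chosen with earlier results of these data known. Promoter windows came from RefSeq; Sox17, Gata6 and Gata4 are not shown. The genome build of the array design was not used here. Alternatives were the authors' values, normexp background correction, quantile normalization, floored levels, no filter on dim probes, other rules for several probes of a gene, no fold minimum, a trend and robust variance, only the arrays compared, arrays as replicates, the replicate block, and leaving out each array or line.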

Additional observations from a re-analysis of the deposited data

Results flagged for a closer look

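Within the 3 kinds of sample that held 4 to 10 arrays, 21 sets of values (7 probes in each kind) were searched for an array far from the others. Of these sets 4 had one. The rule flags about 1 in 20 independent sets by chance, but these sets share arrays and genes, so the count cannot be set against that rate. All 4 lay among the 6 arrays of the inhibitor lines and were not well above background. On BNa17 replicate 1 the 75th percentile used for scaling was a signal of 69.3, the lowest of the 24 arrays, and its part here was not tested. BNa17 replicate 1 was the highest array on the Foxa2 probe A_55_P2067533 (-4.38), with a gap to the next array of 0.682 of the whole range, and on both Sox17 probes (-2.54 and -4.09), with gaps of 0.691 and 0.712. On Hhex, 129Ba2 replicate 1 was the lowest array (-5.17), with a gap of 0.673.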

How the results depend on the processing

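Each comparison was repeated with 1 choice changed at a time. The 5 calls of lower level persisted under every alternative run for the inhibitor lines against 129C1, for IWP2 against 129C1 and for IWP2 against Wt1. The sizes did not persist in the same way. For IWP2 against 129C1 the smallest differences were -5.34 for Foxa2, -2.80 for Sox17, -3.58 for Hhex, -2.98 for Gata6 and -2.12 for Gata4. All are smaller than the differences and bounds given above. Counts of called factors moved by over 1.5 times with normexp background correction (2i against J1, 1; R1 against J1, 1), with arrays as replicates (inhibitor lines against mESCs, 4) and with only the compared arrays fitted (129C1 against Wt1, 1; R1 against J1, 2; E6.5 against E5.5, 0). Leaving out 1 array or line gave 2 to 5 called for inhibitor against original lines, 3 to 5 for original lines against mESCs, 0 to 2 for original lines against E6.5, 1 to 3 for E6.5 against E5.5, 1 to 5 for E7.5 against E6.5 and 1 to 2 for 2i against J1. With normexp, Sox17 was not called at E7.5 against E6.5 (-0.65) or in the inhibitor lines against E6.5 (-0.60), nor was Gata6 in 2i (-0.75), and floored levels ended the call of Sox17 in the inhibitor lines against E6.5 too (-1.94). Differences that changed sign were all uncalled. For IWP2 against the inhibitor lines these were Gata6 (0.10) and Gata4 (-0.0045) with normexp, Sox17 (-0.078) and Gata4 (-0.27) with quantile normalization, and Hhex (-0.012) with floored levels. Gata4 in 2i became -0.34 with quantile normalization and -0.18 with floored levels, and Gata4 in R1 against J1 0.092 with floored levels. Leaving out arrays gave -0.47 to 0.39 for Foxa2 in 129C1 against Wt1, -0.25 to 0.88 for Sox17 and -0.35 to 0.71 for Gata4 with IWP2 against the inhibitor lines, -0.25 to 2.37 for Sox17 and -0.42 to 2.10 for Gata4 at E6.5 against E5.5, and -0.26 to 0.12 for Hhex and -0.50 to 0.66 for Gata4 in 2i. The cause of these changes was not tested. Normexp used the median signal and was chosen after seeing the data, and the planned version on the mean signal was not run. Slide as a random block could not be fitted, because each group lay on 1 slide.

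Replicate numbers were not taken to pair the samples in the main fits, and pairing was not tested. Deviations of equally numbered arrays correlated at r from -0.246 to 0.221 over 66 pairs of groups, and 9 pairs exceeded 0.1. With the replicate block, all 9 counts tested that way were as without it: 5 for the inhibitor lines against 129C1, 5 for IWP2 against 129C1 and against Wt1, 5 for E7.5 against E6.5, 2 for E6.5 against E5.5, 2 for 2i and 0 for the others.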
